A study of Mus musculus with 4 samples.

Results

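The cells described here were proximal tubule cells of the S1 type, taken from single-cell RNA libraries of mouse kidney by a gate on raw UMIs (unique molecular identifiers, 1 per captured RNA molecule). A barcode entered the gate with 300 or more detected genes, at most 50% mitochondrial UMIs, 5 or more UMIs of Slc34a1, 2 or more of Slc5a2, at most 1 of Slc7a13, and at most 1 each of Slc12a1, Slc12a3 and Aqp2. The gate held 11103 of the 41076 barcodes within the limits on genes and mitochondrial UMIs. In the 0 h library these were 2400 of 10123 barcodes (23.7%, 95% exact Clopper-Pearson interval 22.9 to 24.5). They were 2526 of 9477 in the 1 h library (26.7%, 25.8 to 27.6), 3360 of 11120 in the 4 h library (30.2%, 29.4 to 31.1) and 2817 of 10356 in the 12 h library (27.2%, 26.3 to 28.1). All mice were C57BL/6J, 10 weeks old, with no genetic alteration named in the labels, and each library pooled kidneys of male and female animals. The 1, 4 and 12 h groups had received 1 intraperitoneal injection of 10 µg recombinant human FGF23 per mouse. The labels put the control at 0 h with a dose of 0, but the matrix is named for saline and 1 h. It is called the 0 h library here, since the labels do not say whether these animals had an injection. There was 1 library per time. No difference between times has a replicate check, no p-value is given for one, and every comparison with 0 h shares the same control library.

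The S1 segment is the first stretch of the tubule after the glomerulus. It takes back most of the filtered glucose, amino acids, bicarbonate, phosphate and small proteins, and it is a main site of vitamin D hydroxylation. FGF23 is a hormone from bone that signals through an FGF receptor bound to the co-receptor Klotho, and from there through the ERK kinases. In the proximal tubule it is known to withdraw the sodium-phosphate cotransporters from the brush border and to shift vitamin D from its activating enzyme, Cyp27b1, to its degrading enzyme, Cyp24a1.

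UMIs of all S1 cells of a library were summed, to 29357388, 34415507, 43958627 and 37048890 in order of time, and levels are given as CPM, for which every library is scaled to one common total. These counts are of 3' ends, so levels of different genes are not corrected for how well each is captured, and levels are compared within a gene. Median depth per S1 cell lay between 11066.5 and 12121.5 UMIs, and the median mitochondrial share between 19.1 and 23.8%, lowest at 4 h. Cells were called male or female from Xist and 4 Y-linked genes, and female cells made up 44.2 to 49.2% of the sex-called S1 cells. Log2 ratios to 0 h carry exact conditional binomial 95% intervals. All intervals cover counting error only. A gene was said to rise or fall when it differed at least 1.5-fold, its interval excluded no change, and it had at least 100 UMIs over both libraries. By this rule 1.64% of 10798 genes rose and 1.6% fell at 1 h, 6.47% of 11013 rose and 4.72% fell at 4 h, and 4.34% of 10954 rose and 2.7% fell at 12 h. The median log2 ratio over all genes was 0.01, 0.05 and 0.05. With mitochondrial genes left out of the totals the split at 4 h turned round, to 524 genes that rose and 726 that fell in place of 712 and 520, and the median moved to -0.04.

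The S1 label was borne out by marker genes that the gate did not use. Slc5a12, a lactate transporter of the early tubule, was at 459, 346, 183 and 253 CPM in order of time, and Slc7a7, a basolateral exporter of cationic amino acids, at 341, 329, 289 and 364 CPM. The endocytic receptor genes Lrp2 (megalin) and Cubn (cubilin) were at 1177 to 1226 CPM and 170 to 211 CPM. Neither was called higher than in cells with Slc34a1 but no Slc5a2, so they do not mark S1 in particular. The 6 markers of the S2 segment, led by Fbp1, summed to 1991, 1996, 1786 and 1878 CPM in S1 cells. In the cells with Slc34a1 but no Slc5a2 they summed to 2968, 3013, 2652 and 2965 CPM. The 7 markers of the S3 segment other than Slc7a13, the S3 transporter that the gate limits, summed to 88.6 to 121 CPM, against 1239 to 2062 CPM in cells chosen for Slc7a13. At the threshold of the gate, cells with exactly 2 Slc5a2 UMIs had 251, 209, 128 and 149 CPM of Slc5a12, and cells with exactly 1, just outside, had 166, 111, 83.1 and 90.6 CPM. The corresponding values of Slc22a6, an organic anion transporter of the S2 segment, were 334, 367, 444 and 405 CPM inside and 382, 422, 513 and 497 CPM outside, against 195, 204, 268 and 241 CPM in all S1 cells. Cells just inside the threshold thus lay between all S1 cells and the cells just outside, and the gate showed no sharp edge in these genes. Cells with exactly 2 Slc5a2 UMIs were also shallower than S1 cells as a whole, with median depths of 6229, 8413.5, 8439 and 8782 UMIs. Whether the levels at the edge reflect a gradient along the tubule or sampling of low counts was not tested.

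RNA of other cell types was present at low levels and moved with time. The 5 neutrophil markers summed to 190, 94.9, 42.8 and 27.1 CPM in S1 cells, led by S100a9 and S100a8. The 5 intercalated cell markers went the other way, from 16.9 to 26.2, 38.2 and 42.9 CPM, as did the 6 markers of distal convoluted and connecting tubule, from 63.3 to 79.2, 135 and 184 CPM, of which S100g was the most abundant. Endothelial markers summed to 20.6 to 37.0 CPM, macrophage markers to 1.39 to 5.65 CPM and stromal markers to 0.32 to 2.28 CPM, with Col1a1, Col3a1 and Dcn at 0 at 1 h. The libraries also shared a few barcodes, which numbered 6, 8, 7 and 9 among the S1 cells. Leaving these out changed none of the values recomputed without them by more than their counting error.

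The FGF23 co-receptor was expressed in S1 cells and was lower at the later times. In order of time Kl was at 235, 206, 143 and 133 CPM. The 0 h library was the highest and the 4 and 12 h libraries the lowest, with log2 ratios of -0.19 (-0.24 to -0.14), -0.72 (-0.77 to -0.67) and -0.82 (-0.88 to -0.77). The fall at 4 h was -0.55 in male and -0.98 in female cells, and at 12 h -0.74 and -0.93. After each cell was thinned to 5000 UMIs, 66.4, 61.3, 47.3 and 47.5% of S1 cells held a Kl UMI (84.3, 83.7, 72.4 and 72.0% before thinning). The same share in endothelial cells was 7.58, 3.77, 2.30 and 5.17%, from 53 to 87 cells per library. Klb, the co-receptor for other hormone-like FGFs, had no UMI in any library.

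Among the receptors, Fgfr3 was at 25, 20.2, 22.3 and 27.1 CPM, Fgfr4 at 13.3, 13.5, 12.7 and 13.6 CPM and Fgfr1 at 9.88, 11.2, 10.1 and 12.0 CPM, and none rose or fell at any time. Fgfr2 stayed at or below 0.351 CPM. Thinned to 3000 UMIs, Fgfr3 was found in 7.34, 5.82, 7.34 and 8.26% of S1 cells, against 13.9, 6.29, 6.25 and 3.76% of endothelial cells, so that its share was not above that of endothelial cells at 0 and 1 h. Fgfr1 was found in 2.98 to 3.37% of S1 cells, below its share in endothelial cells in all 4 libraries. Thinned to 5000 UMIs, 25.8 and 24.2% of endothelial cells at 0 h held Fgfr1 and Fgfr3, so they give no background for either gene. Fgfr4 was found in 3.32 to 4.37% of S1 cells at 3000 UMIs, against 0 to 1.08% of endothelial cells. Of the 10 genes of the receptor list that were measured, which also holds the adaptors Frs2, Frs3 and Grb2, none rose at any time. One fell at each: the adaptor gene Frs3 at 1 h, from 10.8 to 6.16 CPM (log2 ratio -0.81), and Kl at 4 and 12 h.

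Many target genes of the ERK pathway rose at 1 h. The ERK feedback list holds phosphatases and adaptors that ERK induces and that damp it, and other ERK targets such as Etv5, Ccnd1 and Epha2. Of its 17 measured genes 10 rose and none fell at 1 h, with a median log2 ratio of 1.38. At 4 h 9 rose and 1 fell (median 1.22), and at 12 h 4 of 15 rose and 1 fell (median 0.36). Etv5 and Spred1 were among the genes that did not rise at 1 h, at 0.22 and 0.08. The number that rose was 6 of 14 at 1 h and 0 of 9 at 12 h when cells were thinned to 5000 UMIs, which leaves fewer genes measured, and 2 of 11 at 12 h in male cells alone. Dusp6, the phosphatase that removes phosphate from ERK, was at 33.3, 127, 83.7 and 42.6 CPM. It was highest at 1 h and near its starting level at 12 h, with log2 ratios of 1.94 (1.83 to 2.04), 1.33 and 0.36. The Sprouty genes, whose products block signalling below receptor tyrosine kinases, were lower in level: Spry4 was at 1.19, 8.8, 7.05 and 3.21 CPM, Spry1 at 2.28, 9.53, 11.8 and 5.59 CPM and Spry2 at 3.17, 8.28, 7.94 and 5.53 CPM. All 3 rose at 1, 4 and 12 h.

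Other ERK targets differed in how long they stayed high. Nab2, a co-repressor that binds Egr1, was at 2.25, 19.3, 5.25 and 2.56 CPM, and Phlda1 at 0.886, 7.35, 4.64 and 1.56 CPM. Both peaked at 1 h, with log2 ratios of 3.09 and 3.03. Spry1, at 2.36, and Dusp4, a nuclear phosphatase at 1.23, 6.42, 7.44 and 2.81 CPM, were higher at 4 h than at 1 h. Errfi1, an inhibitor of the EGF receptor with a high level at 0 h (607, 918, 834 and 532 CPM), rose at 1 h by 0.60, which was 0.18 in male and 1.17 in female cells. The cell cycle gene Ccnd1, at 129, 143, 53.1 and 71.7 CPM, was the only gene of the list that fell, at 4 h (-1.28) and 12 h (-0.85).

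The immediate early genes, which are transcribed within minutes of a stimulus, did not move as one group. At 1 h 8 of 18 rose and 2 fell. At 4 h 3 of 16 rose (1 with mitochondrial genes left out of the totals) and 8 fell, and at 12 h none rose and 13 of 16 fell (median -0.97), or 8 of 14 in female cells alone. Egr1, a zinc finger transcription factor, was at 11.7, 167, 13.7 and 3.16 CPM, from 342, 5742, 604 and 117 UMIs. Only the 1 h library was high, with a log2 ratio of 3.84 (3.68 to 4.00), of 3.50 in male and 4.57 in female cells. Thinned to 5000 UMIs, 3.31% of S1 cells held an Egr1 UMI at 0 h and 50.1% (48.1 to 52.1) at 1 h, before 4.76 and 1.08% at 4 and 12 h. Endothelial cells, which carry Egr1 themselves and so give no background for it, were at 37.9, 39.6, 35.6 and 29.3%. Ier2 was at 16.1, 71.5, 24.2 and 12.6 CPM, Zfp36 at 49.5, 114, 26.1 and 28.2 CPM and Junb at 31.3, 66.7, 23.8 and 18.7 CPM, and all 3 rose at 1 h. Fos, by contrast, was at 81.1, 84.8, 29.2 and 11.8 CPM and Jun at 401, 326, 252 and 184 CPM. Fos did not rise at 1 h (0.06, which was -0.43 in male and 0.76 in female cells), and both were highest in the first 2 libraries and fell at 12 h, by -2.78 for Fos and -1.12 for Jun. Fos and Jun are also known to be induced when tissue is dissociated, and the part of handling in these levels was not tested.

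Hes1 and Hbegf were among the genes with the largest rise at 1 h. Hes1 (chr16:30064384-30067796, plus strand, GRCm38), a transcriptional repressor best known as a Notch target, was at 7.83, 107, 41.9 and 20.6 CPM. It was lowest at 0 h and declined from 1 h on, with log2 ratios of 3.77 (3.58 to 3.97), 2.42 and 1.39. Hbegf, a membrane-bound ligand of the EGF receptor, was at 19.2, 192, 24 and 12.2 CPM. Only the 1 h library was high (3.32, 3.20 to 3.45), in male (2.79) and in female cells (4.24). The gene of its receptor, Egfr, was at 37.3, 35.6, 24.1 and 22.2 CPM.

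**Figure D1:**
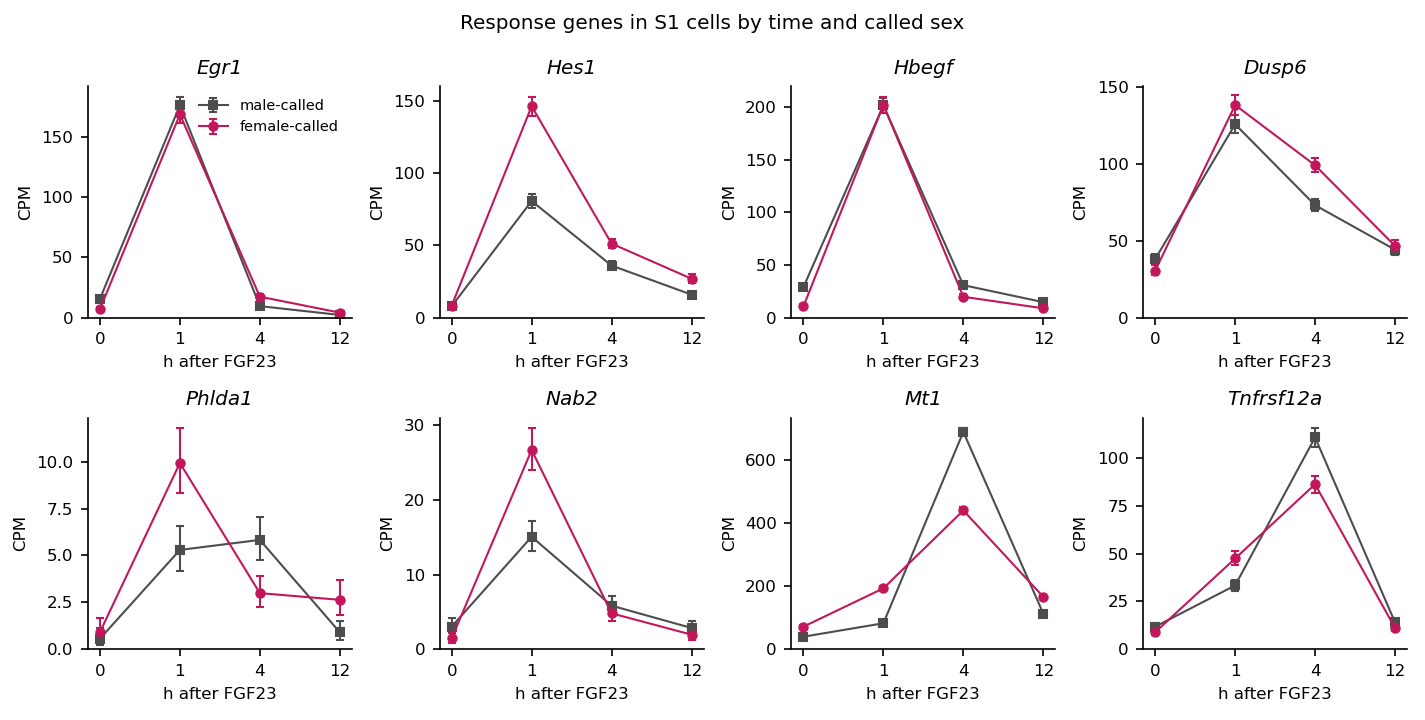
Levels of 8 response genes in S1 cells (CPM, linear axes from 0) at 0, 1, 4 and 12 h, spaced evenly, with male-called and female-called cells drawn apart and bars for exact Poisson 95% intervals. Egr1, Hes1, Hbegf, Dusp6, Phlda1 and Nab2 peak at 1 h in the library as a whole, whereas Mt1 and Tnfrsf12a peak at 4 h.

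Among genes that fell at 1 h, Irs2, an adaptor of the insulin receptor, was at 23, 7.84, 7.62 and 14.3 CPM (log2 ratios -1.55, -1.59 and -0.68). In female cells alone these were -0.78, -0.47 and -0.25, of which the last 2 are under the threshold, against -2.11, -2.55 and -0.89 in male cells. Angptl4, a secreted inhibitor of lipoprotein lipase and a target of the fasting receptor Ppara, was at 28.6, 10.4, 10 and 6.42 CPM (-1.46 at 1 h). Ppara itself was at 37.4, 63.7, 62.7 and 59.6 CPM and rose at all 3 times, by 0.77, 0.75 and 0.67. Of 10 genes of the FoxO-type list, many of which insulin signalling is known to repress, 2 rose and 2 fell at 1 h, 2 rose and 4 fell at 4 h, and 2 fell at 12 h. Rhov, a small GTPase gene, fell at 1 h only, at 5.21, 1.25, 3.94 and 5.56 CPM (-2.05 at 1 h). Cxcl9, Retnlg, Lyz2 and Vim, which also fell at 1 h, are genes of immune or stromal cells. Retnlg is 1 of the neutrophil markers given above and was at 20.8, 6.68, 2.62 and 1.05 CPM, and Cxcl9 had 97, 5, 10 and 2 UMIs. A filter left out cells with 3 or more UMIs of podocyte, endothelial, stromal or immune cell markers. Without these cells the log2 ratios at 1 h were 0.08 for Lyz2, 0.88 for Vim, -0.34 for Retnlg and -2.15 for Cxcl9. With them they were -1.49, -1.55, -1.64 and -4.38. Retnlg is 1 of the filter's own markers, so its value after the filter is no separate check.

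**Figure D2:**
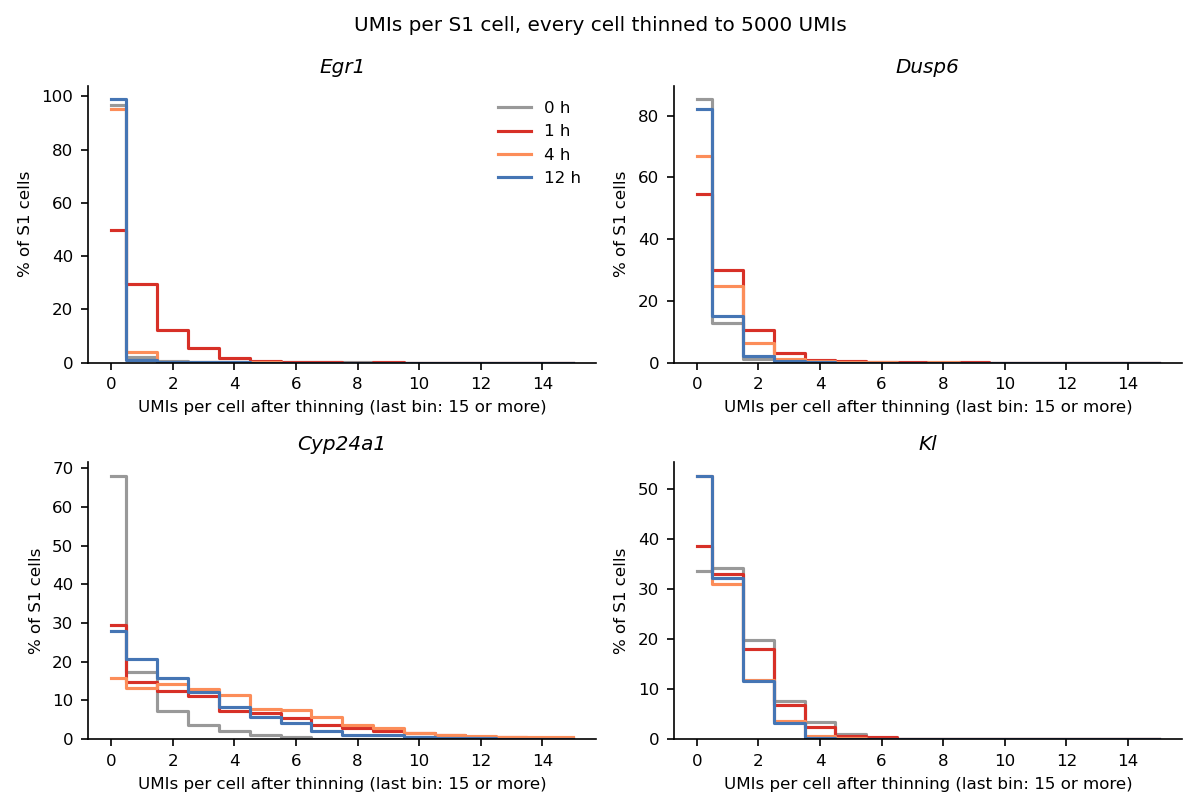
Share of S1 cells (percent, each cell thinned to 5000 UMIs) by the number of UMIs of Egr1, Dusp6, Cyp24a1 and Kl in the cell, for the libraries at 0, 1, 4 and 12 h. Cells with an Egr1 UMI went from 3.31% at 0 h to 50.1% at 1 h, cells with a Cyp24a1 UMI from 31.9% at 0 h to 84.2% at 4 h, and cells with a Kl UMI from 66.4 to 47.3%.

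The vitamin D enzymes moved in opposite directions. Cyp24a1, the mitochondrial hydroxylase that inactivates vitamin D, was at 118.5, 526, 704 and 427 CPM in order of time. It was lowest at 0 h and highest at 4 h, with log2 ratios of 2.15 (2.10 to 2.20), 2.57 (2.52 to 2.62) and 1.85 (1.80 to 1.90). The level followed the same course in male cells, at 106, 512, 818 and 446 CPM, and in female cells, at 146, 615, 650 and 460 CPM. At 5000 UMIs per cell, 31.9, 70.6, 84.2 and 72.0% of S1 cells held a Cyp24a1 UMI (43.1, 78.9, 89.8 and 83.2% before thinning). In endothelial cells the thinned share was 0, 5.66, 4.60 and 1.72%. Cyp27b1 (chr10:127048250-127053006, plus strand), the hydroxylase that makes the active hormone, was at 7.32, 2.5, 0.25 and 0.567 CPM, from 215, 86, 11 and 21 UMIs. It was highest at 0 h and lowest at 4 h, with log2 ratios of -1.55, -4.81 (-5.89 to -4.00) and -3.66. Its level is low, so that 3.35, 1.26, 0.193 and 0.310% of thinned S1 cells held a UMI.

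Vdr, the vitamin D receptor, was at 94.9, 155, 210 and 180 CPM and rose at all 3 times (0.71, 1.15 and 0.92). Of the 8 measured genes of the vitamin D list, Cyp24a1 and Vdr rose and Cyp27b1 fell at each time. Cyp27a1, a hydroxylase of an earlier step, was at 29.4, 26.4, 20.5 and 23.1 CPM, and it neither rose nor fell, nor did Rxra, Rxrb, Dhcr7 and Gc.

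**Figure D3:**
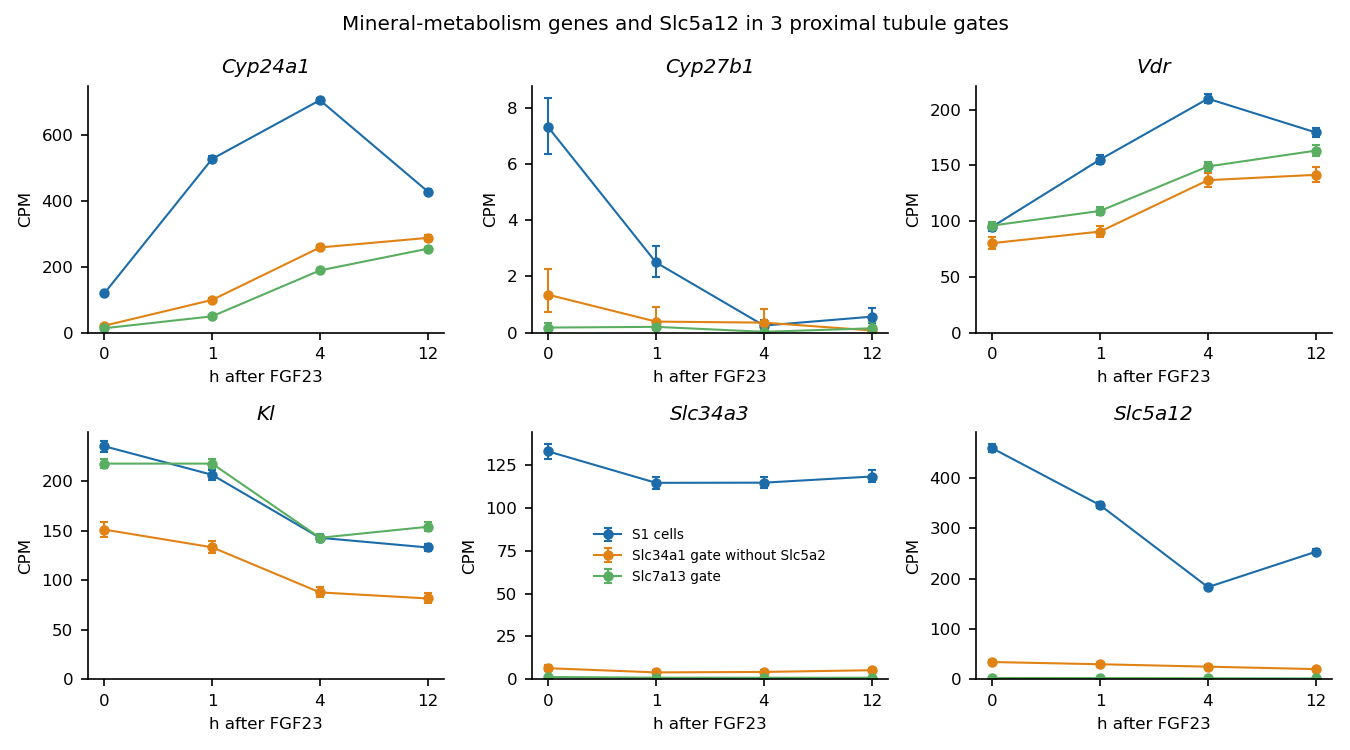
Levels (CPM, linear axes from 0) of Cyp24a1, Cyp27b1, Vdr, Kl, Slc34a3 and Slc5a12 at 0, 1, 4 and 12 h, spaced evenly, in S1 cells, in Slc34a1 cells without Slc5a2 and in Slc7a13 cells, with exact Poisson 95% intervals. In S1 cells Cyp24a1 goes from 118.5 to 704 CPM at 4 h, while Slc34a3 stays between 115 and 133 CPM.

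Of the phosphate transporter genes that the gate did not use, none rose or fell. Slc34a1, the main brush border cotransporter, was at 4559, 4317, 4069 and 3578 CPM, but the gate requires it in every cell, so that these levels do not show its course. Slc34a3, the other sodium-phosphate cotransporter of this membrane, was at 133, 115, 115 and 118 CPM and neither rose nor fell, and the same held for the housekeeping cotransporters Slc20a1 and Slc20a2 and for the phosphate exporter Xpr1 (79.3, 76, 58.3 and 64.5 CPM). Slc9a3r1 encodes NHERF1, the scaffold that holds Slc34a1 at the membrane, and went from 160 CPM in the control to 240 CPM at 4 h, a rise of 0.59 (0.54 to 0.64) that was 0.50, under the threshold, with mitochondrial genes left out of the totals. The parathyroid hormone receptor gene Pth1r was level at 343, 348, 323 and 342 CPM, and the scaffold gene Pdzk1 was at 559, 524, 465 and 422 CPM. Sgk1, a kinase gene responsive to steroids, was at 46.9, 71.5, 32.8 and 11.6 CPM, which was a rise at 1 h (0.61) and a fall at 12 h (-2.02). Of 14 measured genes of the phosphate list, 1 rose at 1 h, 1 rose at 4 h and 1 fell at 12 h, and these were Sgk1, Slc9a3r1 and Sgk1 in that order. With mitochondrial genes left out of the totals none rose at 4 h and 1 fell, Sgk1 at -0.60. Protein at the membrane was not measured by these data.

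Among solute carriers, Slc5a12 fell at 4 and 12 h. Slc7a7, the other S1 marker that the gate did not use, neither rose nor fell. The Slc5a12 levels given above correspond to log2 ratios of -0.41, -1.33 (-1.37 to -1.29) and -0.86, and at 4 h the ratio was -1.85 in male and -0.89 in female cells. Cells with exactly 2 Slc5a2 UMIs, which had less Slc5a12, numbered 196 of 2400, 246 of 2526, 339 of 3360 and 345 of 2817 S1 cells in order of time. The part of this shift in the levels of Slc5a12 and other early-tubule genes was not tested. Slc13a1, the sodium-sulfate cotransporter, was at 369, 481, 710 and 849 CPM, and it increased at each later time (0.38, 0.94 and 1.20). Slc16a1, a monocarboxylate transporter, was high at 4 h alone, at 60.6, 71.7, 135 and 76.1 CPM, and Slc26a6, an anion exchanger, at 4 and 12 h, at 5.93, 5.41, 12.5 and 13.7 CPM. In the list of 9 carboxylate and sulfate transporters 3 rose and 1 fell at 4 h, and 2 rose and 2 fell at 12 h.

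Of 13 amino acid transport genes, none rose or fell at 1 h, and 1 rose and 2 fell at 4 h. Slc6a19, the main apical transporter of neutral amino acids, was at 461, 428, 272 and 399 CPM and fell at 4 h (-0.76), and Slc7a8, its basolateral counterpart, was at 293, 276, 173 and 183 CPM. Slc6a18, which is higher in the later tubule, rose, at 23.8, 30.7, 54.2 and 43 CPM. The fructose transporter gene Slc2a5 (50.2, 47, 26.1 and 38.2 CPM) fell at 4 h and the mannose and fructose cotransporter gene Slc5a10 (13.9, 13.2, 26.2 and 22.9 CPM) rose. Gatm, the first enzyme of creatine synthesis, was at 3213, 2822, 2241 and 1732 CPM and was highest at 0 h and lowest at 12 h (-0.89). Of 12 gluconeogenesis genes 1 fell at 4 h, Ppargc1a at -0.75, and 1 at 12 h, the glucose-6-phosphatase gene G6pc at -0.72, which was -1.08 in male cells and -0.24, under the threshold, in female cells. Of 12 heat shock genes 2 rose at 1 h, 1 fell at 4 h and 3 fell at 12 h. No gene of the endocytosis list (12 measured) or of the nuclear oxidative phosphorylation list (15 measured) rose or fell at any of the 3 times. Over all genes at most 6.47% rose and 4.72% fell at any time. Lists of this size would thus hold few or no such genes in any case.

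**Figure D4:**
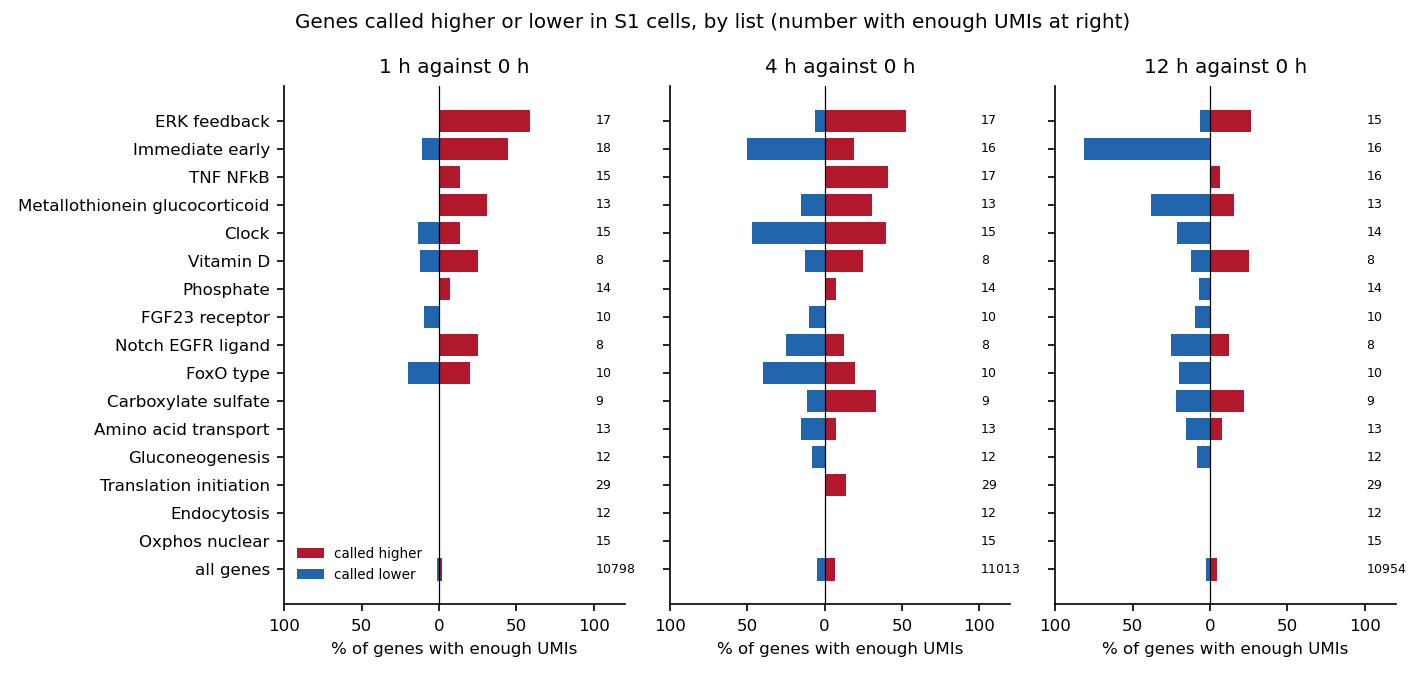
Percent of the measured genes of each list that rose (right) and fell (left) in S1 cells at 1, 4 and 12 h, with the same over all genes tested. The ERK feedback list has 10 of 17 genes higher at 1 h and the immediate early list 13 of 16 lower at 12 h. Over all genes 1.64% are higher at 1 h and 2.7% lower at 12 h. The endocytosis and oxidative phosphorylation lists have none in either direction, which is near the small share over all genes.

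The metallothioneins rose most at 4 h. Mt1 (chr8:94179082-94180327, plus strand) and Mt2 (chr8:94172664-94173568, plus strand) encode small proteins that bind zinc and copper and lie side by side on chromosome 8. The 250 bases before the RefSeq start of each gene are printed because the pair moved together. On build GRCm38.p6 these are Mt1 chr8:94178839-94179088 and Mt2 chr8:94172368-94172617, both on the plus strand. RefSeq places the start of Mt1 slightly after, and that of Mt2 before, the GENCODE start. Capitals mark matches on either strand to the core of the metal response element, TGCACNC or TGCGCNC, to which the zinc sensor MTF1 is known to bind. The window of Mt1 holds 1 match and that of Mt2 holds 3. Bases after the RefSeq start were not searched, so these counts need not hold all elements of either promoter. Among all 32851 promoter windows of RefSeq, 21.4% hold at least 1 and 1.26% at least 3.
Mt1: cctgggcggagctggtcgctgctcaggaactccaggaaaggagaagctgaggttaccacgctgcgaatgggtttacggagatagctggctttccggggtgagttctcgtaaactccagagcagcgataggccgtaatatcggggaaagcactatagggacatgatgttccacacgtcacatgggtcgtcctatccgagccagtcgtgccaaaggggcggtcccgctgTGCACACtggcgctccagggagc
Mt2: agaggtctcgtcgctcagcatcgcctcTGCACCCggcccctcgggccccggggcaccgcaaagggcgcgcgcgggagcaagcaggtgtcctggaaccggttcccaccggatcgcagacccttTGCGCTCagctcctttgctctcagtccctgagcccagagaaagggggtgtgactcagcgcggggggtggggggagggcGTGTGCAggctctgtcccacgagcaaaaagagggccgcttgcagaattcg
Mt1 was at 54.6, 135, 570 and 142 CPM, and Mt2 at 2.56, 7.24, 41.9 and 5.26 CPM. For both genes 0 h was the lowest library and 4 h the highest by a wide margin, with log2 ratios at 4 h of 3.38 (3.31 to 3.46) and 4.03 (3.70 to 4.39). The rise at 4 h was larger in male cells (4.13 for Mt1 and 5.69 for Mt2) than in female cells (2.63 and 1.91). At 5000 UMIs per cell, Mt1 was found in 18.9, 35.8, 71.9 and 38.7% of S1 cells, against 10.6, 3.77, 11.5 and 5.17% of endothelial cells.

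Some glucocorticoid-responsive genes, which stand in the same list as the metallothioneins, differed between the sexes at 4 h. This difference was not tested. At 4 h Fkbp5, a co-chaperone of the glucocorticoid receptor, had a log2 ratio of -0.12 in male and 2.31 in female cells, and Zbtb16, a zinc finger repressor, of -3.02 and 2.73. Zbtb16 was at 3.88, 5.06, 5.19 and 0.486 CPM in all S1 cells and fell at 12 h (-2.96). Of the 13 genes of the list 4 rose and none fell at 1 h, 4 rose and 2 fell at 4 h, and 2 rose and 5 fell at 12 h.

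Of 17 measured genes of TNF and NF-kB signalling, 7 rose and none fell at 4 h (median 0.29), while 2 of 15 rose at 1 h and 1 of 16 at 12 h. The number at 4 h was 5 of 17 with mitochondrial genes left out of the totals, and 5 of 18 rose and 1 fell with equal weight per cell. In male cells alone 3 of 10 measured genes rose, in female cells alone 6 of 10, and after thinning 4 of 10. Tnfrsf12a (chr17:23675445-23677468, minus strand), the receptor for the cytokine TWEAK, was at 10.9, 36.9, 98.9 and 12.2 CPM. It was high at 1 and 4 h and back near its 0 h level at 12 h, with log2 ratios of 1.75, 3.17 (3.01 to 3.35) and 0.16. Tnfrsf1a, the main TNF receptor, was at 18.7, 21.4, 48.1 and 26.5 CPM (1.36 at 4 h). The NF-kB subunit genes Relb, Nfkb2 and Rela rose at 4 h by 1.22, 0.79 and 0.65 from levels at 0 h of 1.64, 4.16 and 7.94 CPM. Icam1, an adhesion molecule and NF-kB target, was at 7.32, 7.79, 11.7 and 10.3 CPM (0.67 at 4 h). The neutrophil markers were lower at 4 h than at 0 h, as given above. Of 29 translation initiation genes 4 rose and none fell at 4 h (Eif1a 0.85, Eif6 0.72, Eif4a1 0.69 and Eif2b4 0.59), with a median of 0.24, and none rose or fell at 1 or 12 h. Tubb2a, a beta-tubulin gene, was high at 4 h, at 13.1, 16.6, 82.9 and 25.4 CPM (2.66).

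Clock genes made up several of the other large changes at 4 h. Cry1, a repressor of the clock, was at 1.57, 1.57, 11.3 and 0.54 CPM, with a log2 ratio of 2.83 at 4 h. Dbp, an output gene of the clock, was at 26.9, 13.1, 3.64 and 37 CPM, and Nr1d1, its repressor of Arntl, at 26.9, 22.8, 4.75 and 26.3 CPM. Both were lowest at 4 h (-2.88 and -2.50). Of 15 measured clock genes 6 rose and 7 fell at 4 h, against 2 and 2 at 1 h and none and 3 of 14 at 12 h. These counts and levels are over both sexes, and at 12 h some clock genes went opposite ways in them. Dbp had log2 ratios at 12 h of 2.63 in male and -2.26 in female cells, and Arntl of -2.25 and 1.68. Nr1d1 was at -0.04 and 0.02. The pooled values at 12 h therefore do not show a return to the 0 h level within each sex. The labels give no time of day of collection, and its part in these changes was not tested.

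The genes with the largest rise at 12 h included genes of other tubule cells. Slc4a1, an intercalated cell anion exchanger, was at 0.102, 2.38, 1.98 and 2.75 CPM, Atp6v1c2, a proton pump subunit gene, at 0.715, 1.63, 3.05 and 3.91 CPM, and Aqp6, a water channel gene of intercalated cells, at 0.0681, 1.6, 2.59 and 3.02 CPM. Klk1 (chr7:44225360-44229618, plus strand), kallikrein of the connecting tubule, was at 33.7, 30, 69.5 and 163 CPM, and its log2 ratio at 12 h of 2.27 was 1.65 in male and 4.07 in female cells. These 4 genes rose beside the intercalated markers (16.9 to 42.9 CPM) and the distal and connecting tubule markers (63.3 to 184 CPM from 0 to 12 h). The filter on other types' UMIs uses no marker of intercalated, distal or connecting tubule cells, so it could not remove barcodes that also held these. After it the log2 ratios at 12 h were 4.52 for Slc4a1, 5.14 for Aqp6, 2.17 for Atp6v1c2 and 2.25 for Klk1. With a mitochondrial limit of 25% Slc4a1 was at 1.58 and Aqp6 at 2.62. The part of such mixed barcodes, or of free RNA of those tubule cells, was not tested. Clu, the chaperone clusterin, was at 2.35, 3.75, 8.85 and 15.4 CPM (2.70), and the stress response gene Nupr1 at 0.443, 1.07, 0.728 and 2.59 CPM. AY036118, a transcript named only by its clone, was at 14.2, 16.8, 51.6 and 106 CPM. Rnase4 (4.12, 5.29, 8.46 and 24 CPM) overlaps Ang, so that its reads may be shared. The injury markers as a list summed to 1533, 1386, 1545 and 1294 CPM, nearly all of it Spp1.

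Among genes that fell at 12 h, S100a9 was at 89.3, 45.6, 21.3 and 12.7 CPM and S100a8 at 75.7, 39.9, 17.3 and 11.9 CPM, and both are neutrophil markers. Their log2 ratios at 12 h were -2.67 for S100a8 and -2.82 for S100a9, and -2.76 and -3.44 without the cells that held other types' UMIs. That filter counts the UMIs of both genes, so the second pair of values is no separate check. Prkag3, a subunit gene of the AMP-activated kinase, was at 16.4, 19.3, 6.73 and 2.65 CPM (-2.62). Ins2, an insulin gene that the tubule is not known to express, was at 5.42, 2.85, 0.137 and 0.027 CPM.

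To see where S1 cells differ from the rest of the proximal tubule, their summed UMIs were compared within each library with those of 4832 cells that had Slc34a1 but no Slc5a2 and of 7410 cells that had 5 or more Slc7a13 UMIs. The gates were drawn on UMIs of the same cells, so genes that vary along the tubule with Slc5a2 or Slc7a13 differ by construction. The size of a difference comes from edgeR's quasi-likelihood test with Benjamini-Hochberg adjustment (n = 4 libraries, 1 per time). Its adjusted p-values do not measure the spread of a difference. The libraries are of different times, so any change of a difference with time enters its error. Of 13294 genes 28.1% were higher and 26.3% lower in S1 cells than in the cells without Slc5a2, and 33.7% higher and 31.1% lower than in the Slc7a13 cells. Sex went with the gates: 71.2 to 85.2% of the sex-called cells without Slc5a2 were female, and at most 1.72% of the Slc7a13 cells. Values within 1 sex are given beside some of the differences below. The others are over cells of both sexes, so the sex of the cells may enter them.

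Early-tubule transporters stood highest in S1 cells. Slc5a12 was higher by 3.40 on the log2 scale than in cells without Slc5a2 (adjusted p 1.19e-08; 3.34 in male and 3.54 in female cells) and by 7.26 than in Slc7a13 cells (adjusted p 5.93e-11). Slc34a3 was higher by 4.56 (adjusted p 9.26e-11; 3.56 in male and 5.63 in female cells) and 6.81 (adjusted p 3.48e-12). Slc6a19 was higher by 2.55 and 4.00, Slc7a7 by 1.97 and 3.02 and Gatm by 1.44 and 4.99. Lrp2 was at 0.00 and 0.02 (adjusted p 0.9595 and 0.8274) and the nuclear receptor gene Hnf4a at 0.09 and 0.00 (adjusted p 0.101 and 0.981), so for these genes no difference passed the test. Organic ion transport was lower in S1 cells, with 10 of 15 genes lower and none higher than in cells without Slc5a2 and 11 lower and 2 higher than in Slc7a13 cells. In the amino acid transport list 9 of 14 genes were higher and 5 lower than in cells without Slc5a2, and in the endocytosis list 9 of 12 higher and 1 lower. Slc22a6 was lower by -1.43 and -2.37 and the S3 steroid hydroxylase gene Cyp7b1 by -1.32 and -8.02.

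The genes chosen by the size of their difference included several without a known role in transport. Col8a1, a short-chain collagen gene, was higher in S1 cells by 5.91 and 7.69 and F5, coagulation factor V, by 5.28 and 7.46. Against Slc7a13 cells Stra6, a retinol transporter gene, was higher by 7.12 (6.39 in male cells). Among genes lower in S1 cells, Ido2, an enzyme of tryptophan breakdown, differed by -4.93 from cells without Slc5a2, and Slco1a1, an organic anion transporter, by -7.78 from Slc7a13 cells. Serpina1 family genes were also among the lowest, and their near-identical copies make the single genes uncertain.

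**Figure D5:**
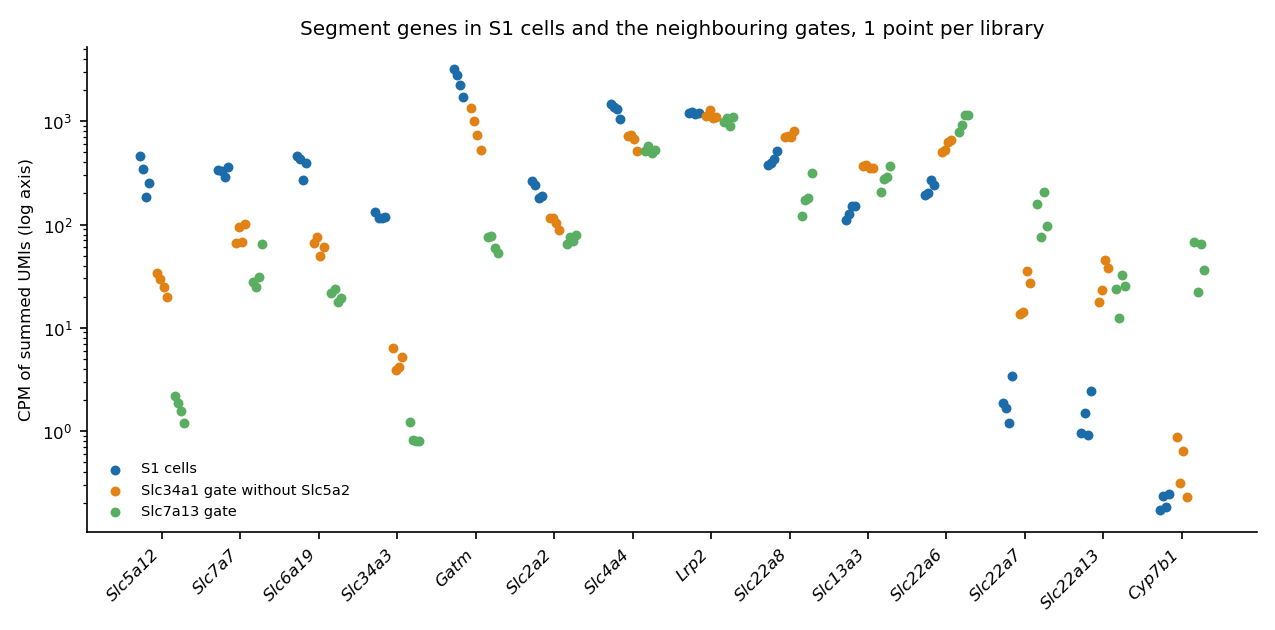
Levels (CPM, log axis) of 14 segment genes in S1 cells, in cells without Slc5a2 and in Slc7a13 cells, with 1 point per library and the times 0, 1, 4 and 12 h from left to right within a gate. Slc5a12 lies between 183 and 459 CPM in S1 cells and far lower in Slc7a13 cells, whereas the fitted differences of Lrp2 are 0.00 and 0.02 on the log2 scale.

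The FGF23 and vitamin D genes differed between the same gates. Kl was higher in S1 cells than in cells without Slc5a2 by 0.60 (adjusted p 2.30e-05; 0.83 in male and 0.48 in female cells). Against Slc7a13 cells it was at -0.27 (adjusted p 0.00335), a difference of the same sign in 2 of 4 libraries and of -0.15 (adjusted p 0.135) in male cells alone. Fgfr3 was higher in S1 cells by 0.45 and 0.48, whereas Fgfr1 and Fgfr4 were lower than in Slc7a13 cells and Fgfr2 was lower than in cells without Slc5a2. Of 11 genes of the receptor list, 5 were higher and 1 lower than in cells without Slc5a2. Against Slc7a13 cells 3 were higher and 4 lower. Cyp24a1 was higher by 1.76 (adjusted p 0.00204) and 2.12 (adjusted p 4.45e-04), and Cyp27b1 by 1.95 (adjusted p 0.0104) and 3.75 (adjusted p 1.45e-04).

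All 3 gates held cells with a response, and the levels of a gene differed in their course. In cells without Slc5a2 Cyp24a1 was at 20.7, 98.9, 258 and 287 CPM and in Slc7a13 cells at 13.2, 49.2, 188 and 254 CPM, so that it was highest at 12 h there and at 4 h in S1 cells. S1 cells had the highest level of the 3 in every library, with ratios of level that were largest at 0 and 1 h. Cyp27b1 had its highest level at 0 h in S1 cells, and reached at most 1.35 CPM in cells without Slc5a2 and 0.204 CPM in Slc7a13 cells. Egr1 was at 28.1, 218, 39.2 and 12.7 CPM in cells without Slc5a2 and at 32.1, 244, 22.4 and 8.39 CPM in Slc7a13 cells, above the S1 level at every time. Hes1 at 1 h was at 107 CPM in S1 cells, 38.4 CPM in cells without Slc5a2 and 23.2 CPM in Slc7a13 cells. Mt1 at 4 h was at 570 CPM in S1 cells, 158 CPM in cells without Slc5a2 and 20.9 CPM in Slc7a13 cells. These levels are over both sexes, whose shares differ between the gates. Within S1 cells Hes1 at 1 h was at 80.7 CPM in male and 146.3 CPM in female cells, and Mt1 at 4 h at 688.5 and 439.4 CPM. Whether the change with time itself differed between the gates has no test with 1 library per time.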

How the data were processed

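Droplet single-cell RNA libraries (10x Genomics 3' chemistry, per the labels' protocols) were deposited by the authors as count matrices, with the whole number of UMIs of each gene in each barcode and no normalisation. Cell Ranger 3.1.0, STAR and Seurat and the build mm10 are named in the submitters' processing notes. The members and gene lists were chosen with earlier results of these data known. UMIs were summed per gate and library (numpy 2.4.6, scipy 1.17.1) and given as CPM. A pseudocount of 0.5 was added to the counts in log2 ratios. Per-cell shares were taken after thinning each cell to 5000 UMIs, which left out 223, 152, 249 and 234 S1 cells, and for the receptors to 3000 UMIs. Endothelial cells served as cells that should lack tubule genes, at a median depth of 2395 to 2569 UMIs per cell. No doublet caller was run. Cells with 3 or more UMIs of other types' markers, 90, 73, 79 and 91 in order of time, were left out as an alternative. These markers were the podocyte, endothelial, stromal, macrophage, neutrophil, B cell and T and NK cell lists, with none of other tubule cells. Gates were compared with edgeR 4.0.16 (TMM scaling) with library as a block, and with DESeq2 1.42.0 as an alternative. Besides list genes, the genes named were up to 8 that rose most and 8 that fell most at each time and changed at least 1.5-fold in both sexes, and up to 8 each way per gate contrast with the same sign in 4 of 4 libraries. Mitochondrial, ribosomal, haemoglobin, immunoglobulin, sex-linked and most unnamed genes were left out. Not all genes so chosen are described. Scripts were tested on simulated data. Positions come from GENCODE vM21 by gene ID, in which 99.62% of 31053 IDs were found. Promoter windows come from RefSeq on GRCm38.p6. That set of windows was searched for Cyp24a1, Hes1, Slc5a12 and Slc5a2 as well and held no entry for them, so their promoters were not examined. The protocol's 24 h time is not analysed here.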

Additional observations from a re-analysis of the deposited data

Results flagged for a closer look

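Among the genes of the response and transport lists with at least 100 UMIs in each sex over both libraries compared, 10 changes in S1 cells went at least 1.5-fold one way in male and the other way in female cells. Zbtb16 at 4 h, given in the report, had too few UMIs in male cells to enter. Each rests on 1 library per time, and the difference between the sexes was not tested. At 1 h Bcl6, a transcriptional repressor, had log2 ratios of 2.40 in male and -0.95 in female cells, a difference of -3.35 (female minus male, as below). Its male levels were 7.85, 41.6, 34.7 and 2.70 CPM in order of time, against 8.87, 4.59, 8.08 and 7.65 CPM in female cells. At 4 h Egr1 was at -0.71 in male and 1.29 in female cells, a difference of 2.0, and Sgk1 at -2.02 and 0.74, a difference of 2.75. The dicarboxylate transporter gene Slc13a2 went the other way, at 0.83 and -0.63, a difference of -1.47. Slc9a3r2, which encodes a scaffold related to NHERF1, differed by 1.64 at 4 h and 1.91 at 12 h.

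At 12 h the clock genes differed most. Arntl, the clock's main activator, was at -2.25 in male and 1.68 in female cells, a difference of 3.94, from 10.6, 14.2, 21.6 and 2.19 CPM in male and 3.98, 5.12, 18.3 and 12.9 CPM in female cells. Nfil3 differed by 3.58. Dbp went from 9.44 to 58.6 CPM in male and from 47.3 to 9.82 CPM in female cells between 0 and 12 h, log2 ratios of 2.63 and -2.26 and a difference of -4.89, and Per3 differed by -2.78. Over all genes such opposed changes were few, with 5 each way of 9214 genes at 1 h, 25 higher in female and lower in male cells and 6 the reverse of 9535 at 4 h, and 20 and 4 of 9365 at 12 h.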

How the results depend on the processing

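Counting error alone is covered by the intervals, and differences between animals, preparations and hours of collection are not. Alternatives chosen with the design were each sex alone, a 25% mitochondrial limit, 3 Slc5a2 UMIs, cells without other types' UMIs, totals without mitochondrial genes, equal weight per cell, thinning to 5000 UMIs before the gate, a 2-fold threshold, and a minimum of 300 UMIs or none. Leaving out barcodes shared between libraries was chosen after seeing the data and moved no value beyond its counting error and no count by more than 1.5 times. Among log2 ratios of single genes other than Kl and counts of list genes that rose or fell, 2134 values stayed the same, 699 moved and 14 changed sign. A ratio moved when it went beyond its counting error, and a count when it changed by more than 1.5 times. A sign was followed only for changes that met the 1.5-fold threshold. The cause was not tested in any case.

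The share of S1 cells at 0, 1, 4 and 12 h was 20.7, 24.6, 26.6 and 23.3% with the 25% limit and 21.8, 24.1, 27.2 and 23.9% with 3 Slc5a2 UMIs, and 29.0% at 4 h after thinning. Against 177 genes that rose at 1 h, 59 rose at 2-fold and 316 with no minimum. Against 173 that fell at 1 h, the number was 110 without possible doublets, 260 at equal weight, 102 after thinning, 29 at 2-fold, 63 at 300 UMIs and 536 with no minimum. At 4 h, against 712 and 520, 219 rose at 2-fold, and 302 fell in female cells, 165 at 2-fold, 298 at 300 UMIs and 1149 with no minimum. At 12 h, against 475 and 296, 139 rose at 2-fold, 265 at 300 UMIs and 792 with no minimum, and 196 fell in female cells, 93 at 2-fold, 191 at 300 UMIs and 701 with no minimum. ERK feedback genes that rose numbered 6 at 1 h after thinning, and at 12 h 2 in male cells, 0 after thinning and 0 at 300 UMIs. Kl was at -0.29 at 1 h in female cells, at -0.55 (male), -0.98 (female) and -0.81 (total without mitochondrial genes) at 4 h, and at -0.74 (male), -0.93 (female) and -0.75 (thinned) at 12 h.

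Signs changed as follows. Without cells holding other types' UMIs, Lyz2 was at 0.081 at 1 h and 1.97 at 12 h, Mgp at -1.53 at 4 h, and Vim at 0.88, 0.70 and 0.45. After thinning, Klk1 was at -0.030 and Mgp at -1.75 at 4 h. In female cells Angptl4 was at 0.89 at 4 h, Ins2 at 1.58 at 1 h (0.20 at equal weight) and S100a6 at 0.032 at 12 h. In male cells Rnase4 was at -0.078 at 4 h and S100a6 at 1.30 at 1 h.

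Between gates, the fit without the replicate block of library called 2685 genes higher and 2510 lower against cells without Slc5a2, and 3381 and 3278 against Slc7a13 cells, all within 1.5 times the blocked counts of 3742, 3490, 4480 and 4134. Leaving out each library gave 3132 to 3412 higher and 3108 to 3187 lower, and 3890 to 4123 and 3736 to 3913. The times themselves could not be paired, with 1 library each. Female cells were not compared with Slc7a13 cells, for lack of female cells there.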

Other observations

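S1 cells of male and female mice differed in a small share of genes. Of 9742 genes with enough UMIs, 82 (0.842%) were at least 1.5-fold higher in female cells and 85 (0.873%) at least 1.5-fold higher in male cells in 4 of 4 libraries. Animals of a sex are pooled within a library, so each library gives 1 value per sex. Prlr, the prolactin receptor, was at 97.96, 114, 71.8 and 78.9 CPM in female and at 12.8, 7.3, 4.82 and 6.76 CPM in male cells, a mean log2 difference of 3.58 ± 0.47 (SD, n = 4 libraries). Cyp4a14, a fatty acid hydroxylase, was higher in female cells by 3.60 ± 0.12, Gsta4, a glutathione transferase, by 2.58 ± 0.31, and Hpd, an enzyme of tyrosine breakdown, by 3.66 ± 0.72.

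In male cells Kap, the androgen-regulated kidney protein, was at 7820, 6277, 10550 and 6101 CPM, against 593, 662, 592 and 979 CPM in female cells (female minus male -3.44 ± 0.65). Ugt8a, a glycosyltransferase gene, differed by -5.63 ± 0.45, Cyp2j13 by -4.90 ± 0.61 and Cyp2e1, an ethanol-oxidising enzyme, by -3.21 ± 0.35. Ces1f, a carboxylesterase with close paralogs that may share reads, differed by -3.38 ± 0.27. The 9 genes named here were chosen from these after their values were seen.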
